A study of Mus musculus with 32 samples.

Results

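The comparison set 4 anti-HA precipitates from brain homogenate of Sall1-CreER:RPL22-HA mice (Sall1 HA) against 4 from Cx3cr1-CreER:RPL22-HA mice (Cx3cr1 HA), all tested genes included. These are 8 of the 32 libraries of the series, chosen by line and antibody alone. Both lines were on a C57BL/6 background and carried the RPL22-HA (RiboTag) allele beside an inducible Cre. All mice, of either line, had been gavaged with 5 mg of tamoxifen on alternate days, 4 times in all, when 4 to 6 weeks old, and were perfused before dissection. Each brain gave 4 samples, so that every HA library had a partner from the same mouse in which a mouse IgG1 antibody replaced anti-HA (Sall1 IgG and Cx3cr1 IgG). The homogenate contained cycloheximide, which arrests translating ribosomes, and polyadenylated RNA was sequenced. The mice were numbered 7, 9, 17 and 21 in the Sall1 line and 1, 2, 3 and 4 in the Cx3cr1 line, and values per library are given in that order.

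RiboTag replaces the last exon of Rpl22, which encodes a protein of the large ribosomal subunit, with an HA-tagged version once Cre has acted. Anti-HA then recovers ribosomes, with the mRNA on them, from every cell that has recombined, so the content of a precipitate depends on where the Cre driver was active while tamoxifen was present. Cx3cr1, the receptor of the chemokine fractalkine, is made by microglia, by macrophages at the borders of the brain and by blood monocytes. Sall1, a zinc finger transcription factor, marks microglia among the macrophages of the mouse brain and is known in neural progenitors as well. Either group is thus limited as a model of microglia by all other cells in which its driver was active and by untagged RNA that adheres to antibody and beads, which the IgG libraries measure.

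The 4 libraries of Sall1 HA held 1894943 to 3027342 gene counts each and those of Cx3cr1 HA 286418 to 574671, while Sall1 IgG had 704183 to 4047465 and Cx3cr1 IgG 2200897 to 2470411. Levels are counts scaled to a common library total (CPM), and 3 counts summed over a group correspond to 0.31 CPM in Sall1 HA and 1.85 CPM in Cx3cr1 HA. A gene was called at an adjusted p under 0.05 in edgeR's quasi-likelihood test. Of 9092 genes tested, 2471 (27.2%) were called higher and 2337 (25.7%) lower in Sall1 HA, in sum 52.9%, and in 50.3% the libraries of one group all lay above those of the other. The median log2 fold change over all tested genes was 0.05. These shares are the background for every count of list members below. Between the IgG precipitates of the lines, edgeR's test called 1 of 11593 genes (0.00863%).

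The balance of directions depended on the scaling, which sets the median of all genes near 0. With library totals only, 3051 genes were higher and 1932 lower, 61.2% of calls were higher and the median was 0.24. Large changes were common in both directions, with 738 genes at a log2 fold change of 2 or more and 756 at -2 or less, whereas beyond 4 and -4 there were 64 and 170 genes. Levels in CPM are shares of a library total. A lower level can come from fewer tagged cells, less RNA on tagged ribosomes per cell or more RNA of other cells. In such bulk precipitates these cannot be told apart.

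The promoters of 3 microglial genes are printed because they hold the best described sequence of the myeloid lineage, the GAGGAAGT core bound by the ETS factor PU.1, and because these genes had the highest levels in Cx3cr1 HA among the listed microglial genes with that core. Capitals mark the match, which is in the reverse orientation (ACTTCCTC) in C1qc and Ctss and in the forward orientation in Inpp5d. The sequences are from RefSeq (GRCm38.p6), run 5′ to 3′ on the gene's strand and cover 250 bases before to 50 bases after the annotated start. The windows are chr4:136892865-136893164 (minus strand), chr3:95526536-95526835 (plus strand) and chr1:87620062-87620361 (plus strand), and the match starts 195, 2 and 20 bases before the gene start.
C1qc: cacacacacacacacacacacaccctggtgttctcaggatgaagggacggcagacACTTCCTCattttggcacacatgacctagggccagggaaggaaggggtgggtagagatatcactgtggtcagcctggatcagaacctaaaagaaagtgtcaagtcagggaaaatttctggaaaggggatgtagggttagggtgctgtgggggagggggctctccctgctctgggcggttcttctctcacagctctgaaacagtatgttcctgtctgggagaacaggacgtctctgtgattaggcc
Ctss: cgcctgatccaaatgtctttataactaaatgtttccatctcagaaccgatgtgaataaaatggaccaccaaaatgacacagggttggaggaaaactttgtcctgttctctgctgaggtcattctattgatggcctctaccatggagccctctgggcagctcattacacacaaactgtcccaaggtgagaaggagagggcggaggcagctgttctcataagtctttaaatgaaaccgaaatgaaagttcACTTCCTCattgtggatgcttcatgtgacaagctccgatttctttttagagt
Inpp5d: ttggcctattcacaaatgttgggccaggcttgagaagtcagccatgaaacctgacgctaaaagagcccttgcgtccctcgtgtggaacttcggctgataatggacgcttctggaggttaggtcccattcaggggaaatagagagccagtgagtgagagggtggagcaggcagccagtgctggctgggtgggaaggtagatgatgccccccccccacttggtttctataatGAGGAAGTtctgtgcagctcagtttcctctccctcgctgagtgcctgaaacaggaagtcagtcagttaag

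On either strand, the core was present in 5 of 22 homeostatic microglial promoters found in the RefSeq table (22.7%), those of C1qc, Cd53, Ctss, Hpgds and Inpp5d. It occurred in 887 of all 27025 promoters (3.28%) and in 203 of the 7070 promoters of tested genes (2.87%). Among genes called lower in Sall1 HA it was found in 85 of 1842 (4.61%), and among genes called higher in 30 of 1904 (1.58%). None of 23 astrocyte and none of 16 oligodendrocyte promoters held it, nor did any of 5 promoters of microglial transcription factors and 5 of MHC class II genes, and of 11 border macrophage promoters only that of Pf4 did. The full palindrome of nuclear factor I was searched as well. It was in 0 of 23 astrocyte, 0 of 16 oligodendrocyte and 0 of 22 homeostatic microglial promoters, and in 11 of all 27025 (0.0407%). Such matches describe the letters in these windows and no binding was measured.

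The genes of the lines' own design come first. Rpl22 (chr4:151699835-151708191; coordinates of genes are those of the deposited table, build mm9), whose product carries the tag, had 282, 322, 304 and 334 CPM in the Sall1 HA libraries, against 251, 275, 264 and 251 CPM in those of Cx3cr1 HA. All 4 Sall1 HA libraries lay above all Cx3cr1 HA libraries on this scale, but after normalization for composition the log2 fold change was 0.06 ± 0.16 (SE, adjusted p = 0.759), which is no call. Both driver genes were lower in Sall1 HA, so that Sall1 was not higher in the line whose Cre it drives. Cx3cr1 itself had 74.4, 87.8, 71.2 and 59.1 CPM in the Sall1 HA libraries, against 819.6, 679, 814 and 1142 CPM in those of Cx3cr1 HA, a log2 fold change of -3.76 ± 0.19 (SE, adjusted p = 1.92e-14). Sall1 had 22.7, 33.8, 32.5 and 31.1 CPM in the Sall1 HA libraries, against 176, 122, 115 and 108 CPM in those of Cx3cr1 HA, at -2.32 ± 0.21 (SE, adjusted p = 4.71e-10). Both drivers were lower in every Sall1 HA library than in any Cx3cr1 HA library. In the IgG libraries Sall1 averaged 14.6 CPM in Sall1 IgG and 15.1 CPM in Cx3cr1 IgG, and Cx3cr1 59.6 CPM in Sall1 IgG and 77.4 CPM in Cx3cr1 IgG.

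The 4 marker genes given with the comparison fell on 2 sides. Csf1r (chr18:61265226-61290793), the receptor for the cytokines that keep microglia and macrophages alive, had 276, 248, 229 and 311 CPM in the Sall1 HA libraries, against 6614, 6207, 4981 and 5003 CPM in those of Cx3cr1 HA. Cd74 (chr18:60963503-60972306), the invariant chain that escorts MHC class II molecules, had 5.28, 5.14, 7.40 and 7.27 CPM in the Sall1 HA libraries, against 442, 419, 769 and 353 CPM in those of Cx3cr1 HA. The groups were far apart for either gene, and Cd74 averaged 6.27 CPM in Sall1 HA beside 13.2 CPM in Sall1 IgG and 12.3 CPM in Cx3cr1 IgG. On the opposite side, Clu (chr14:66587320-66600382), a secreted chaperone abundant in astrocytes, had 4273, 5042, 3684 and 4140 CPM in the Sall1 HA libraries, against 256, 284, 289 and 206 CPM in those of Cx3cr1 HA. Vtn (chr11:78312622-78315827), which encodes vitronectin and marks pericytes in brain, had 334, 312, 304 and 517 CPM in the Sall1 HA libraries, against 27.8, 27.5, 32.1 and 41.9 CPM in those of Cx3cr1 HA, with mouse 21 of the Sall1 line highest. The labels of both groups are brain homogenate, and RNA of neurons, glia and vessels was detected in both. Without Sall1 HA of mouse 21, Vtn remained called, and over all left-out libraries its log2 fold change lay between 3.13 and 3.48.

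**Figure D1:**
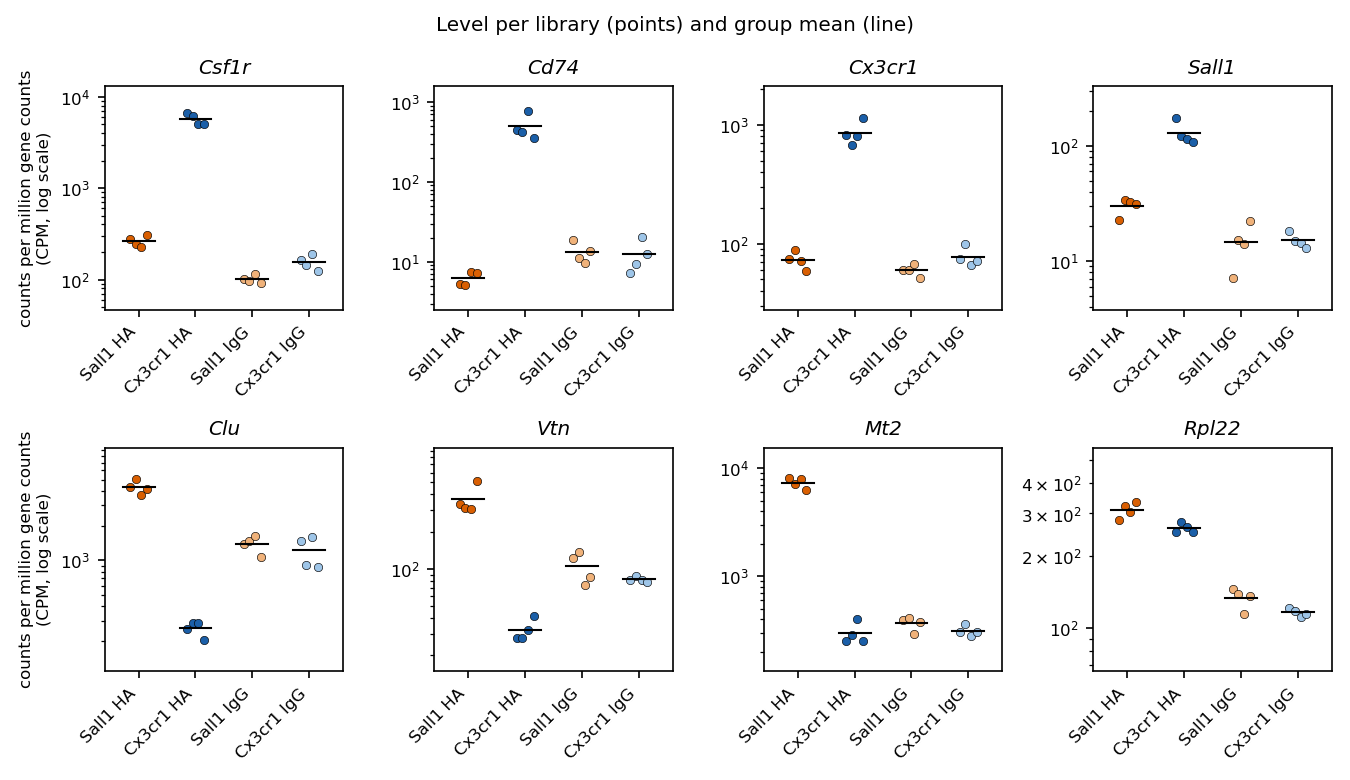
Levels of 8 genes (panels, CPM on a log axis) in every HA and IgG library, with the groups in the order Sall1 HA, Cx3cr1 HA, Sall1 IgG and Cx3cr1 IgG; points are mice and bars the mean of 4. Csf1r, Cd74, Cx3cr1 and Sall1 lie higher in Cx3cr1 HA, Clu, Vtn and Mt2 lie higher in Sall1 HA, and Rpl22 is raised over IgG in both lines.

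All 30 listed homeostatic microglial genes were measured and all 30 were called lower in Sall1 HA, against the 25.7% of all tested genes, with a median log2 fold change of -4.12 and a range of -5.46 to -2.99. None of these genes had overlapping groups. Together they took 0.780% ± 0.0489 of gene counts in Sall1 HA and 10.8% ± 0.333 in Cx3cr1 HA (SD, n = 4 each), beside 0.140% in Sall1 IgG and 0.182% in Cx3cr1 IgG. The microglial signal of Sall1 HA was thus low beside Cx3cr1 HA, yet its lowest library (0.729%) exceeded the highest library of its own IgG (0.173%).

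By role, the C1q subunits, which start the complement cascade and tag synapses for removal, stood at the highest levels per kilobase of the list in Cx3cr1 HA. C1qa had 1825, 1578, 1857 and 2072 CPM in the Sall1 HA libraries, against 26300, 31230, 24990 and 26870 CPM in those of Cx3cr1 HA, and its log2 fold change was -4.09 ± 0.17 (SE, adjusted p = 1.02e-15). C1qb and C1qc lay at -4.32 ± 0.19 and -3.67 ± 0.19. The libraries of a group agreed closely for C1qa, and every Cx3cr1 HA library exceeded every Sall1 HA library. The cysteine protease gene Ctss, named after its values were seen like C1qb and C1qc, had 405, 433, 410.5 and 344 CPM in the Sall1 HA libraries, against 4028, 3258, 6091 and 3512 CPM in those of Cx3cr1 HA (-3.6 ± 0.20).

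Genes of receptors and adhesion showed the same order of groups. Itgam, the CD11b subunit of complement receptor 3, had 47.0, 53.1, 44.8 and 39.0 CPM in the Sall1 HA libraries, against 760.4, 740.3, 796 and 782 CPM in those of Cx3cr1 HA, the most even values in Cx3cr1 HA of the 30 homeostatic genes. Trem2, a lipid-sensing receptor, had 319.8, 288, 296 and 269 CPM in the Sall1 HA libraries, against 3740, 3591, 3242 and 3202 CPM in those of Cx3cr1 HA, and its signalling adaptor Tyrobp 567, 461, 475 and 345 CPM in the Sall1 HA libraries, against 3169, 3261, 5219 and 2636 CPM in those of Cx3cr1 HA. Their log2 fold changes of -3.75 ± 0.17 and -3.15 ± 0.21 were smaller than that of Csf1r, -4.61 ± 0.18 (SE, adjusted p = 1.02e-15). The purinergic receptor P2ry12, by which microglia sense ADP, had 1.58, 6.00, 7.82 and 7.93 CPM in the Sall1 HA libraries, against 179, 91.8, 94.1 and 69.8 CPM in those of Cx3cr1 HA, at -4.38 ± 0.33 (SE, adjusted p = 1.87e-10). It averaged 49.5 CPM in Sall1 IgG and 74.9 CPM in Cx3cr1 IgG, so that Sall1 HA held less of it than its own background. Gpr34, a lysophospholipid receptor, and the tetraspanin Cd53 had the largest changes of the list at -5.22 ± 0.50 and -5.46 ± 0.51, and averaged 0.581 and 0.552 CPM in Sall1 HA. Olfml3, a secreted glycoprotein, stood at the other end with 259, 244, 221 and 175 CPM in the Sall1 HA libraries, against 1258, 1646, 1890 and 1428 CPM in those of Cx3cr1 HA. Trem2, Tyrobp, P2ry12, Gpr34, Cd53 and Olfml3 were picked after their values were seen.

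Transcription factors of the lineage were lower throughout, with 8 of 8 measured called and a median of -4.0. Irf8, required for microglial maturation, had 33.8, 39.8, 33.3 and 42.3 CPM in the Sall1 HA libraries, against 517, 444, 681 and 670.3 CPM in those of Cx3cr1 HA, a log2 fold change of -4.14 ± 0.20 (SE, adjusted p = 4.53e-15). Irf5, which drives inflammatory genes, had 26.9, 16.3, 18.9 and 14.9 CPM in the Sall1 HA libraries, against 258, 239, 360.2 and 332 CPM in those of Cx3cr1 HA. No library of one group reached the other for either gene, and in Sall1 HA Irf8 was above its IgG averages of 15.4 CPM in Sall1 IgG and 17.5 CPM in Cx3cr1 IgG. Spi1, the gene of PU.1, lay at -3.88 ± 0.21, and Ikzf1 had the largest change at -4.89 ± 0.32 (both named after their values were seen).

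Genes of border macrophages, the perivascular and meningeal cells that are no microglia, were lower in all 10 members tested of 15 in the table, with a median of -5.36, and none had overlapping groups. Pf4, the platelet factor chemokine, had 1.05, 3.00, 4.11 and 4.62 CPM in the Sall1 HA libraries, against 254, 312, 259 and 175 CPM in those of Cx3cr1 HA, a log2 fold change of -6.38 ± 0.28 (SE, adjusted p = 1.96e-15). The carbonyl reductase gene Cbr2 had 1.05, 0, 3.29 and 1.98 CPM in the Sall1 HA libraries, against 59.2, 73.4, 66.5 and 66.3 CPM in those of Cx3cr1 HA, and the scavenger receptor gene Stab1 12.7, 14.6, 12.8 and 20.1 CPM in the Sall1 HA libraries, against 223, 327, 266 and 353 CPM in those of Cx3cr1 HA. Pf4 and Cbr2 stood at a few CPM or less in Sall1 HA, as in the IgG libraries, where Pf4 averaged 4.73 CPM in Sall1 IgG and 2.98 CPM in Cx3cr1 IgG. The list's share of gene counts was 0.00323% ± 0.000705 in Sall1 HA and 0.0863% ± 0.0124 in Cx3cr1 HA, and 0.00419% in Sall1 IgG and 0.00363% in Cx3cr1 IgG. The 5 members not tested, Lyve1, Ms4a7, Siglec1, Dab2 and Ccl24, did not pass the low-count filter, and a member could pass it through Cx3cr1 HA alone.

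MHC class II genes present antigen to CD4 T cells. After filtering they gave the largest median of all lists, -6.31, with 6 of 6 tested members lower. A member could pass the filter through Cx3cr1 HA alone. With no filter 6 of 8 were lower, and the median was -5.04, beside -5.13 for border macrophages. H2-Eb1, a beta chain, had 3.69, 1.71, 2.88 and 1.98 CPM in the Sall1 HA libraries, against 183, 217, 427 and 227 CPM in those of Cx3cr1 HA, at -6.87 ± 0.32 (SE, adjusted p = 1.65e-14). Cd74 lay at -6.47 ± 0.27 (SE, adjusted p = 1.96e-15), and the alpha chain gene H2-Aa, named after its values were seen, at -7.45 ± 0.40 (SE, adjusted p = 1.63e-10). H2-DMb1, a subunit of the peptide-loading complex, had 19.0, 19.7, 21 and 20.1 CPM in the Sall1 HA libraries, against 332, 312, 339.5 and 335 CPM in those of Cx3cr1 HA, a smaller difference of -4.23 ± 0.18. Levels of the antigen-presenting chains were uneven among Cx3cr1 HA libraries, with mouse 3 highest for H2-Eb1, H2-Aa and Cd74, whereas H2-DMb1 varied by little. H2-DMb2 and Ciita were not tested.

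Among the genes that rise in disease-associated microglia, 11 of 19 tested members were lower, 3 higher and 5 not called, with a median of -1.54. The lower ones were led by lysosomal and surface genes. The cathepsin gene Ctsd had 2477, 2314, 2343 and 2002 CPM in the Sall1 HA libraries, against 15940, 16100, 18330 and 21100 CPM in those of Cx3cr1 HA, a log2 fold change of -3.16 ± 0.16 (SE, adjusted p = 1.69e-14). Cd68, a lysosomal glycoprotein, lay at -3.34 ± 0.21 and Cd52, a small surface glycoprotein, at -3.22 ± 0.18. Higher in Sall1 HA were Fabp5, a fatty acid binding protein, with 101, 96.4, 91.7 and 65.7 CPM in the Sall1 HA libraries, against 5.22, 3.06, 11.5 and 10.5 CPM in those of Cx3cr1 HA (3.37 ± 0.34 SE, adjusted p = 4.20e-09), and, named after their values were seen, the growth factor gene Csf1 at 1.25 ± 0.28 and the tetraspanin Cd63 at 0.54 ± 0.19. Fabp5 did not overlap between groups. Apoe, the main lipid carrier of the brain and known in both microglia and astrocytes, was level between the precipitates with 16760, 12890, 13800 and 14090 CPM in the Sall1 HA libraries, against 14900, 13280, 13490 and 13210 CPM in those of Cx3cr1 HA. Its groups overlapped and its log2 fold change was -0.12 ± 0.15 (SE, adjusted p = 0.501), although it stood above the IgG libraries, which averaged 1782 CPM in Sall1 IgG and 1677 CPM in Cx3cr1 IgG. Cst3, a cysteine protease inhibitor also made by both cell types, had 12820, 10810, 10450 and 10970 CPM in the Sall1 HA libraries, against 51080, 52630, 50300 and 48950 CPM in those of Cx3cr1 HA, at -2.36 ± 0.15 (SE, adjusted p = 5.95e-13). Apoe and Cst3 were singled out after their values were seen.

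Inflammatory cytokines and chemokines were sparse, and 11 of 16, Il1b, Tnf and Il6 among them, did not pass the filter. The 5 tested were lower, with a median of -3.19. Ccl5, a chemokine for T cells and monocytes, had 6.33, 4.71, 6.99 and 4.96 CPM in the Sall1 HA libraries, against 76.6, 67.3, 156 and 66.3 CPM in those of Cx3cr1 HA, and mouse 3 of the Cx3cr1 line stood apart. The adhesion molecule gene Icam1 had 7.39, 8.14, 7.82 and 6.28 CPM in the Sall1 HA libraries, against 99.2, 88.7, 73.4 and 83.8 CPM in those of Cx3cr1 HA and the chemokine gene Ccl12 8.97, 15.0, 12.3 and 9.58 CPM in the Sall1 HA libraries, against 48.7, 55.1, 52.8 and 55.9 CPM in those of Cx3cr1 HA. Their log2 fold changes were -4.20 ± 0.30, -3.73 ± 0.24 and -2.38 ± 0.26, and no group overlapped. Interferon-stimulated genes were lower in 9 of 9 tested of 17, with a median of -1.68. Bst2, which tethers viruses to the cell, had 80.2, 96.4, 87.6 and 89.5 CPM in the Sall1 HA libraries, against 392, 459, 585 and 461 CPM in those of Cx3cr1 HA, and the groups lay apart. Irf7, a master regulator of type I interferon, lay at -3.20 ± 0.31 and Ifi27l2a at -2.82 ± 0.20.

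Astrocyte genes took the opposite direction, with all 28 listed genes tested and all 28 called higher in Sall1 HA, against the 27.2% of all tested genes. Their median was 3.29, from 1.05 for Glul to 4.60 for Htra1, and no member had overlapping groups. The list held 3.445% ± 0.239 of gene counts in Sall1 HA and 0.2975% ± 0.0167 in Cx3cr1 HA, and 0.991% in Sall1 IgG and 1.007% in Cx3cr1 IgG. Sall1 HA was thus above and Cx3cr1 HA below the background of either IgG group.

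Htra1, a secreted serine protease, had 1824, 1765, 1639 and 1408 CPM in the Sall1 HA libraries, against 57.4, 67.3, 57.4 and 59.4 CPM in those of Cx3cr1 HA, a log2 fold change of 4.60 ± 0.20 (SE, adjusted p = 1.87e-15). Mlc1, a membrane protein of astrocyte endfeet, had 2015, 1885, 1972 and 1757 CPM in the Sall1 HA libraries, against 92.2, 125, 108 and 126 CPM in those of Cx3cr1 HA, and Clu lay at 3.85 ± 0.18 (SE, adjusted p = 4.36e-15). All Sall1 HA libraries exceeded all Cx3cr1 HA libraries by a wide margin for these genes. The following genes were chosen after their values were seen. Slc1a2, the main glutamate transporter of the forebrain, had 1521, 1504, 1539 and 1510 CPM in the Sall1 HA libraries, against 186, 141, 151 and 101 CPM in those of Cx3cr1 HA and the gap junction gene Gja1 31.1, 42.0, 37.0 and 40.6 CPM in the Sall1 HA libraries, against 15.7, 9.18, 6.88 and 3.49 CPM in those of Cx3cr1 HA. Gja1 averaged 48.4 CPM in Sall1 IgG and 67.6 CPM in Cx3cr1 IgG, Aqp4, the water channel of endfeet, 85.9 CPM in Sall1 IgG and 96.6 CPM in Cx3cr1 IgG, and in Sall1 HA they averaged 37.7 and 47.3 CPM, so neither exceeded its IgG level there. Gfap, a cytoskeletal protein, was uneven among Sall1 HA libraries, with 198, 134, 117 and 341 CPM in the Sall1 HA libraries, against 24.4, 30.6, 20.6 and 17.5 CPM in those of Cx3cr1 HA. The orphan receptor gene Gpr37l1 was uneven in both groups, with 1477, 1047, 929.9 and 2115 CPM in the Sall1 HA libraries, against 169, 168, 34.4 and 34.9 CPM in those of Cx3cr1 HA, and its log2 fold change was 3.55 ± 0.57 (SE, adjusted p = 0.00119).

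Metallothioneins, small proteins that bind zinc and copper, were among the most abundant RNAs of Sall1 HA. Mt2 had 8139, 7075, 7876 and 6315 CPM in the Sall1 HA libraries, against 252, 288, 402 and 255 CPM in those of Cx3cr1 HA, a log2 fold change of 4.42 ± 0.19 (SE, adjusted p = 1.96e-15). Mt1 had 8702, 8259, 7434 and 7134 CPM in the Sall1 HA libraries, against 706, 798, 688 and 538 CPM in those of Cx3cr1 HA, and Mt3, a form known from brain, 1460, 1199, 1022 and 998 CPM in the Sall1 HA libraries, against 157, 144, 108 and 178 CPM in those of Cx3cr1 HA. All 3 lay apart between groups, at 3.34 ± 0.17 for Mt1 and 2.82 ± 0.19 for Mt3. Their share was 1.64% ± 0.158 in Sall1 HA and 0.113% ± 0.0116 in Cx3cr1 HA, and 0.148% in Sall1 IgG and 0.143% in Cx3cr1 IgG. Scaled per kilobase of transcript, the most abundant RNAs of Sall1 HA were Mt1 (14680 CPM per kilobase), Cst3 (14240), Mt2 (13340), Apoe (11650) and Ptgds (9432). In Cx3cr1 HA they were Cst3 (64150 CPM per kilobase), C1qa (25390), C1qb (18850), Apoe (11110) and the ribosomal protein gene Rplp1 (9948).

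**Figure D2:**
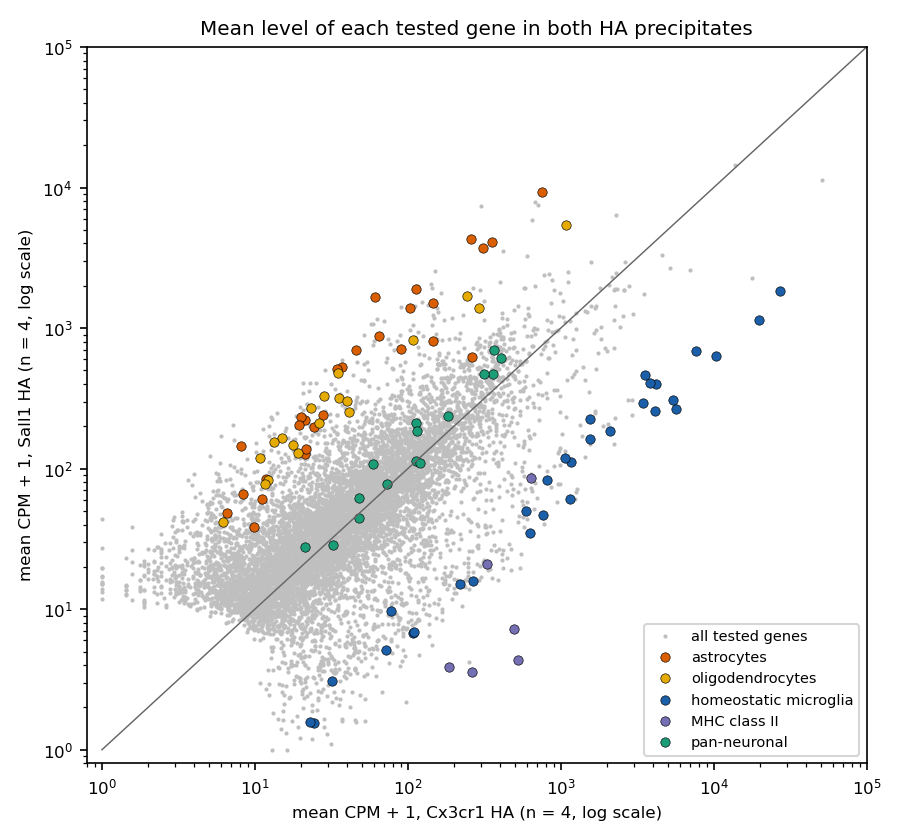
Mean level of each tested gene in Sall1 HA (vertical) against Cx3cr1 HA (horizontal), both in CPM with 1 added and on log axes; each point is a gene and members of several lists are coloured. Homeostatic microglial and MHC class II genes lie below the line of equal levels, astrocyte and oligodendrocyte genes lie above it, and pan-neuronal genes lie near it.

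Of genes known from neural stem and progenitor cells, 6 of 7 tested were higher and Thrsp was not called. Hes5, a Notch target, had 243, 257, 206 and 284 CPM in the Sall1 HA libraries, against 13.9, 12.2, 18.4 and 6.98 CPM in those of Cx3cr1 HA, at 4.00 ± 0.26 (SE, adjusted p = 1.67e-12), and the transcription factor gene Sox2 99.2, 136, 106 and 88.5 CPM in the Sall1 HA libraries, against 26.1, 3.06, 29.8 and 17.5 CPM in those of Cx3cr1 HA (2.18 ± 0.30). Hopx, known from quiescent stem cells and astrocytes, lay at 2.39 ± 0.23. Genes of dividing or neuronally committed cells, Mki67, Top2a, Dcx and Eomes, did not pass the low-count filter, and neither did Nes and Gli1. Hes5, Sox2 and Hopx are known in adult astrocytes too, and this list and the astrocyte list moved in the same direction.

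Oligodendrocyte genes were higher in all 19 tested members of 21 in the table, with a median of 2.77 and no overlap between groups. Mog, a myelin surface protein, had 515, 429, 474 and 490.5 CPM in the Sall1 HA libraries, against 31.3, 48.9, 39.0 and 17.5 CPM in those of Cx3cr1 HA, a log2 fold change of 3.6 ± 0.23 (SE, adjusted p = 6.44e-13). Opalin, a late myelin gene, had 233, 325, 302 and 215 CPM in the Sall1 HA libraries, against 26.1, 15.3, 22.9 and 24.4 CPM in those of Cx3cr1 HA, and Ppp1r14a, a phosphatase inhibitor found in these cells, 368, 317, 280.1 and 345 CPM in the Sall1 HA libraries, against 22.6, 36.7, 18.4 and 31.4 CPM in those of Cx3cr1 HA. In Cx3cr1 HA, Mog and Opalin lay near or below IgG, where they averaged 56.0 CPM in Sall1 IgG and 58.0 CPM in Cx3cr1 IgG for Mog and 29.6 CPM in Sall1 IgG and 26.2 CPM in Cx3cr1 IgG for Opalin. The list's share was 1.238% ± 0.124 in Sall1 HA and 0.205% ± 0.0297 in Cx3cr1 HA, and 0.546% in Sall1 IgG and 0.660% in Cx3cr1 IgG.

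The precursors of oligodendrocytes gave 10 of 10 tested members higher, of 14 in the table. Their median of 2.98 was the same with Enpp6, which had no count in Cx3cr1 HA, at its bound. Tnr, Lhfpl3, Cacng4 and Bmp4 did not pass the low-count filter, and a member could pass it through Sall1 HA alone. With no filter 10 of 14 were higher, with a median of 2.86. Olig1, a basic helix-loop-helix factor, had 1789, 1134, 1621 and 1256 CPM in the Sall1 HA libraries, against 95.7, 171, 139.9 and 129 CPM in those of Cx3cr1 HA, at 3.26 ± 0.21 (SE, adjusted p = 1.04e-12). The related Olig2 had 132, 146, 120.1 and 142 CPM in the Sall1 HA libraries, against 15.7, 9.18, 4.59 and 17.5 CPM in those of Cx3cr1 HA and Sox10, a factor of the whole lineage, 272, 238, 171 and 291 CPM in the Sall1 HA libraries, against 27.8, 39.8, 18.4 and 34.9 CPM in those of Cx3cr1 HA. No library of one group reached the other for these 3 genes. Enpp6, a choline phosphodiesterase of newly forming oligodendrocytes named after its values were seen, had 18.5, 16.7, 21 and 18.2 CPM in the Sall1 HA libraries, against 0, 0, 0 and 0 CPM in those of Cx3cr1 HA. Against a floor of 3 counts over the Cx3cr1 HA libraries it was at least 10.1-fold higher in Sall1 HA. Pdgfra and Cspg4, which define the precursors, averaged 16.6 and 25.6 CPM in Sall1 HA and 2.21 and 3.76 CPM in Cx3cr1 HA, beside 16.4 and 46.1 CPM in Sall1 IgG.

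**Figure D3:**
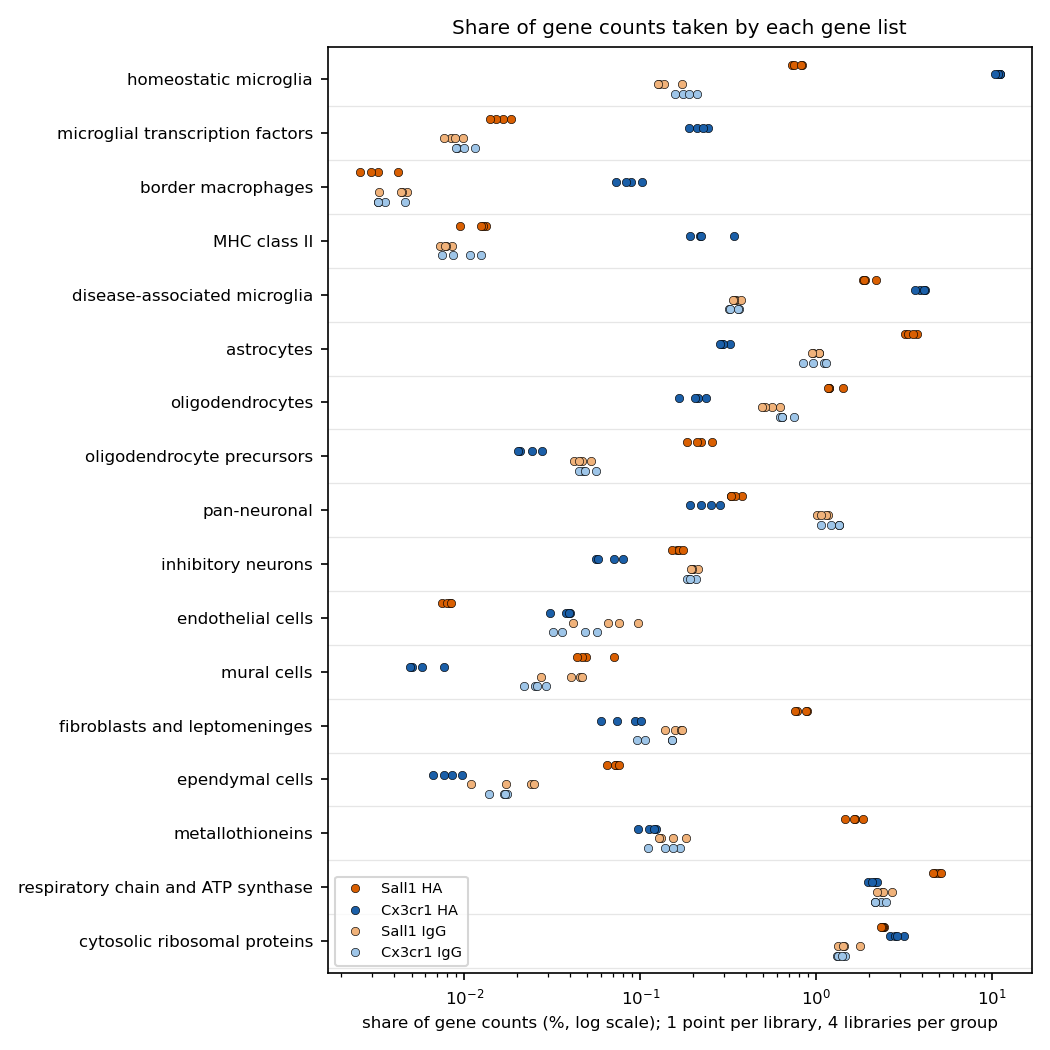
Share of gene counts (percent, log axis) taken by each gene list in every library, with Sall1 HA, Cx3cr1 HA, Sall1 IgG and Cx3cr1 IgG from top to bottom within a list. Homeostatic microglial, border macrophage and MHC class II lists lie further right in Cx3cr1 HA than in Sall1 HA. Astrocyte, oligodendrocyte, mural and fibroblast lists lie further left in Cx3cr1 HA, and Ptgds takes most of the fibroblast share in both HA groups. The pan-neuronal list lies furthest right in both IgG groups.

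Neuronal genes did not share 1 direction, and the pan-neuronal list was below the IgG background in both HA groups. It held 0.345% ± 0.022 of gene counts in Sall1 HA and 0.236% ± 0.0389 in Cx3cr1 HA, beside 1.095% in Sall1 IgG and 1.24% in Cx3cr1 IgG. Of its 15 tested members 3 were called higher, 12 were not called and none was lower, with a median of 0.17. Uchl1, a neuronal deubiquitinase, had 670.2, 722, 605 and 775 CPM in the Sall1 HA libraries, against 378, 538, 362 and 182 CPM in those of Cx3cr1 HA (0.73 ± 0.21 SE, adjusted p = 0.00658). With transcript length as an offset Uchl1 was not called (0.43, adjusted p = 0.0818). Grin1, the obligatory NMDA receptor subunit, lay at 0.71 ± 0.18, and the neuronal enolase gene Eno2 at 0.40 ± 0.17 (SE, adjusted p = 0.0472). The call of Eno2 was lost without any 1 of mice 7, 9 and 17 of the Sall1 line or 1, 2 and 3 of the Cx3cr1 line, with adjusted p between 0.0579 and 0.13. Snap25, a synaptic vesicle fusion protein chosen after its values were seen, overlapped between groups with 181, 303, 231 and 236 CPM in the Sall1 HA libraries, against 258, 180.5, 154 and 139.7 CPM in those of Cx3cr1 HA.

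By transmitter, genes of excitatory neurons split into 2 higher, 2 lower and 2 not called. Slc17a7, the vesicular glutamate transporter of cortex, had 114, 146, 125 and 158 CPM in the Sall1 HA libraries, against 252, 242, 139.9 and 164 CPM in those of Cx3cr1 HA and overlapped between groups (-0.75 ± 0.19 SE, adjusted p = 0.00201). Neurod2, a cortical transcription factor, lay at -0.84 ± 0.22, while Rorb, a layer marker, lay at 1.90 ± 0.39. Fezf2, named after its values were seen, was at 2.07 ± 0.63, with counts in Cx3cr1 HA of mouse 1 alone, and without any 1 of the Sall1 HA libraries only 1 excitatory gene was called higher. Genes of inhibitory neurons were higher in 7 of 11 tested, with none lower and a median of 1.07, which was 1.62 without Cx3cr1 HA of mouse 1. Their share was 0.1635% in Sall1 HA and 0.066% in Cx3cr1 HA, below the 0.1999% in Sall1 IgG and 0.1929% in Cx3cr1 IgG. Slc32a1, the vesicular GABA transporter, had 349.9, 429, 372 and 288 CPM in the Sall1 HA libraries, against 124, 107, 89.5 and 90.8 CPM in those of Cx3cr1 HA, a log2 fold change of 1.6 ± 0.19 (SE, adjusted p = 5.76e-08). Gad1, which makes GABA, had 189.5, 216, 178 and 192 CPM in the Sall1 HA libraries, against 60.9, 30.6, 29.8 and 31.4 CPM in those of Cx3cr1 HA, and the neuropeptide gene Vip 22.7, 18.9, 32.1 and 28.1 CPM in the Sall1 HA libraries, against 1.74, 3.06, 0 and 0 CPM in those of Cx3cr1 HA. The groups of all 3 lay apart, yet Gad1 in Sall1 HA was below IgG, where it averaged 446 CPM in Sall1 IgG and 492 CPM in Cx3cr1 IgG, whereas Slc32a1 was above it (188 CPM in Sall1 IgG and 206 CPM in Cx3cr1 IgG).

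Cerebellar genes were largely not called, with 2 of 5 lower. Pcp2, a Purkinje cell gene, lay at -0.63 ± 0.22 (SE, adjusted p = 0.0173) and Cbln3, a granule cell gene, at -1.01 ± 0.38 (SE, adjusted p = 0.0282), and both overlapped between groups. Both calls were lost with library totals. Pcp2 was at -1.22 with the length offset and lost its call in 1 fit of all 16 homogenate libraries, with no filter, after thinning, without mouse 17 of the Sall1 line (adjusted p = 0.0642) and without mouse 1 or 2 of the Cx3cr1 line (adjusted p = 0.17 and 0.0654). Cbln3 lost it without mouse 1 or 2 of the Cx3cr1 line (adjusted p = 0.0951 and 0.307). The count of cerebellar genes called lower lay between 0 and 3 over the left-out libraries. Of genes of monoamine, cholinergic and hypothalamic neurons, Th, the rate-limiting enzyme of dopamine synthesis, had 68.6, 107, 102 and 68.4 CPM in the Sall1 HA libraries, against 17.4, 6.12, 4.59 and 17.5 CPM in those of Cx3cr1 HA (2.70 ± 0.33 SE, adjusted p = 1.35e-07) and Ddc, the next enzyme of that path, 8.97, 13.7, 10.3 and 11.9 CPM in the Sall1 HA libraries, against 1.74, 6.12, 0 and 0 CPM in those of Cx3cr1 HA. Ddc had 3 counts over the Cx3cr1 HA libraries, and the ratio of summed counts was 6.15-fold (95% exact interval for counting error only, 2.05 to 30.3). These 2 of 5 tested were higher, and without any 1 Sall1 HA library only 1 was called higher. Oxt, Avp and Hcrt, the hypothalamic peptides, were not called.

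Immediate early genes, which respond to stimulation within minutes, gave 6 higher, 3 lower and 8 not called of 17 tested. Fos had 22.2, 46.7, 37.4 and 18.5 CPM in the Sall1 HA libraries, against 10.4, 6.12, 4.59 and 3.49 CPM in those of Cx3cr1 HA (2.01 ± 0.46 SE, adjusted p = 6.13e-04), Nr4a1 166, 170.5, 190.4 and 208 CPM in the Sall1 HA libraries, against 78.3, 116, 34.4 and 66.3 CPM in those of Cx3cr1 HA (1.15 ± 0.24) and Fosb 69.7, 62.5, 65.0 and 24.4 CPM in the Sall1 HA libraries, against 13.9, 21.4, 18.4 and 14.0 CPM in those of Cx3cr1 HA (1.52 ± 0.37). In all 3 the Sall1 HA libraries lay above those of Cx3cr1 HA, and Fosb was lowest in mouse 21. Ier5 was lower with 38.5, 54.8, 39.1 and 42.6 CPM in the Sall1 HA libraries, against 103, 113, 169.8 and 108 CPM in those of Cx3cr1 HA (-1.69 ± 0.21 SE, adjusted p = 1.48e-07). No direction was common to the list.

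Endothelial genes were lower in 4 of 5 tested and 14 of 19 did not pass the filter, Cdh5, Flt1 and Kdr among them. Eng, a TGF-beta co-receptor of endothelium that macrophages also make, had 32.2, 21.4, 23.9 and 23.1 CPM in the Sall1 HA libraries, against 249, 236, 284 and 276 CPM in those of Cx3cr1 HA, a log2 fold change of -3.57 ± 0.20 (SE, adjusted p = 5.74e-14). Pecam1, likewise known on leukocytes, lay at -3.17 ± 0.45 and Ly6a at -2.71 ± 0.40. Cldn5, the tight junction protein that defines brain endothelium, had 3.69, 9.0, 6.58 and 6.28 CPM in the Sall1 HA libraries, against 10.4, 3.06, 9.18 and 17.5 CPM in those of Cx3cr1 HA and was not called (-0.79 ± 0.46 SE, adjusted p = 0.149). Without any 1 Sall1 HA library 2 endothelial genes were called lower, and without mouse 2 of the Cx3cr1 line 6 were. In 1 fit of all 16 homogenate libraries 6 of 17 tested were lower, with a median of -1.21. The list took 0.00800% ± 0.000382 of gene counts in Sall1 HA and 0.0369% ± 0.00433 in Cx3cr1 HA, less than the 0.0696% in Sall1 IgG and 0.0431% in Cx3cr1 IgG.

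Genes of mural cells were higher in 6 of 6 tested, with a median of 3.36. With no filter 8 of 15 were higher, with a median of 2.51. The list's share was 0.0525% ± 0.0122 in Sall1 HA and 0.00584% ± 0.00128 in Cx3cr1 HA. In Sall1 IgG it was 0.03997% and in Cx3cr1 IgG 0.0255%. Libraries of Sall1 HA (0.0438 to 0.0706%) overlapped those of Sall1 IgG (0.0272 to 0.0467%). Vtn lay at 3.34 ± 0.25 (SE, adjusted p = 1.53e-11), Pdgfrb, the receptor that recruits pericytes, had 41.7, 42.4, 39.9 and 55.2 CPM in the Sall1 HA libraries, against 1.74, 0, 4.59 and 10.5 CPM in those of Cx3cr1 HA (3.38 ± 0.46), and Notch3, a receptor of vascular smooth muscle, 32.2, 31.3, 18.5 and 25.4 CPM in the Sall1 HA libraries, against 1.74, 0, 0 and 3.49 CPM in those of Cx3cr1 HA. Notch3 had 2 counts over the Cx3cr1 HA libraries, and the ratio of summed counts was 21.5-fold (95% exact interval for counting error only, 5.88 to 178). The groups of Vtn, Pdgfrb and Notch3 did not overlap. In 1 fit of all 16 homogenate libraries 6 of 11 mural genes tested were higher, with a median of 1.61. The contractile genes of smooth muscle, Acta2, Tagln, Myh11 and Cnn1, did not pass the filter. Genes of fibroblasts and leptomeninges were higher in 10 of 10 tested, of 14 in the table, with a median of 2.54. Col3a1, Lum, Ogn and Slc47a1 did not pass the filter, and a member could pass it through Sall1 HA alone. Ptgds, which makes prostaglandin D2 and is abundant in leptomeninges and oligodendrocytes, had 8133, 7192, 6870 and 7838 CPM in the Sall1 HA libraries, against 830, 906, 601 and 499 CPM in those of Cx3cr1 HA (3.21 ± 0.19 SE, adjusted p = 1.6e-13). Slc6a13, a GABA transporter of meninges, lay at 3.95 ± 0.40, and the growth factor gene Igf2 at 2.54 ± 0.23. Collagen genes stood at lower levels, and Col1a1, named after its values were seen, had 21.6, 29.6, 39.1 and 24.8 CPM in the Sall1 HA libraries, against 6.96, 3.06, 9.18 and 6.98 CPM in those of Cx3cr1 HA.

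The cells that line the ventricles showed the same direction. Ependymal genes were higher in 6 of 7 tested, with a median of 3.37 and Cfap126 not called. Another 8 did not pass the filter, and a member could pass it through Sall1 HA alone. With no filter 10 of the 15 in the table were called higher. Foxj1, the factor that switches on motile cilia, had 66.5, 66.0, 53.9 and 79.6 CPM in the Sall1 HA libraries, against 3.48, 0, 6.88 and 14.0 CPM in those of Cx3cr1 HA (3.37 ± 0.40 SE, adjusted p = 9.04e-08). Rarres2, the gene of chemerin, lay at 4.19 ± 0.36 and Tppp3, a tubulin-binding protein, at 2.83 ± 0.20. Choroid plexus genes were higher in 3 of 3 tested and 10 of 13 did not pass the filter. Ttr, the thyroxine carrier of cerebrospinal fluid, had 3557, 3992, 2844 and 2645 CPM in the Sall1 HA libraries, against 517, 694, 649 and 555 CPM in those of Cx3cr1 HA (2.24 ± 0.18 SE, adjusted p = 5.24e-11), and its groups lay apart. Folr1, a folate receptor, lay at 2.50 ± 0.44 and Enpp2, the lysophospholipase autotaxin, at 1.38 ± 0.36, a call that was lost in 1 fit of all 16 homogenate libraries (1.48 ± 0.68 SE, adjusted p = 0.0948). Enpp2 averaged 384 CPM in Sall1 IgG and 317 CPM in Cx3cr1 IgG, far above its 36.0 CPM in Sall1 HA and 11.4 CPM in Cx3cr1 HA.

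**Figure D4:**
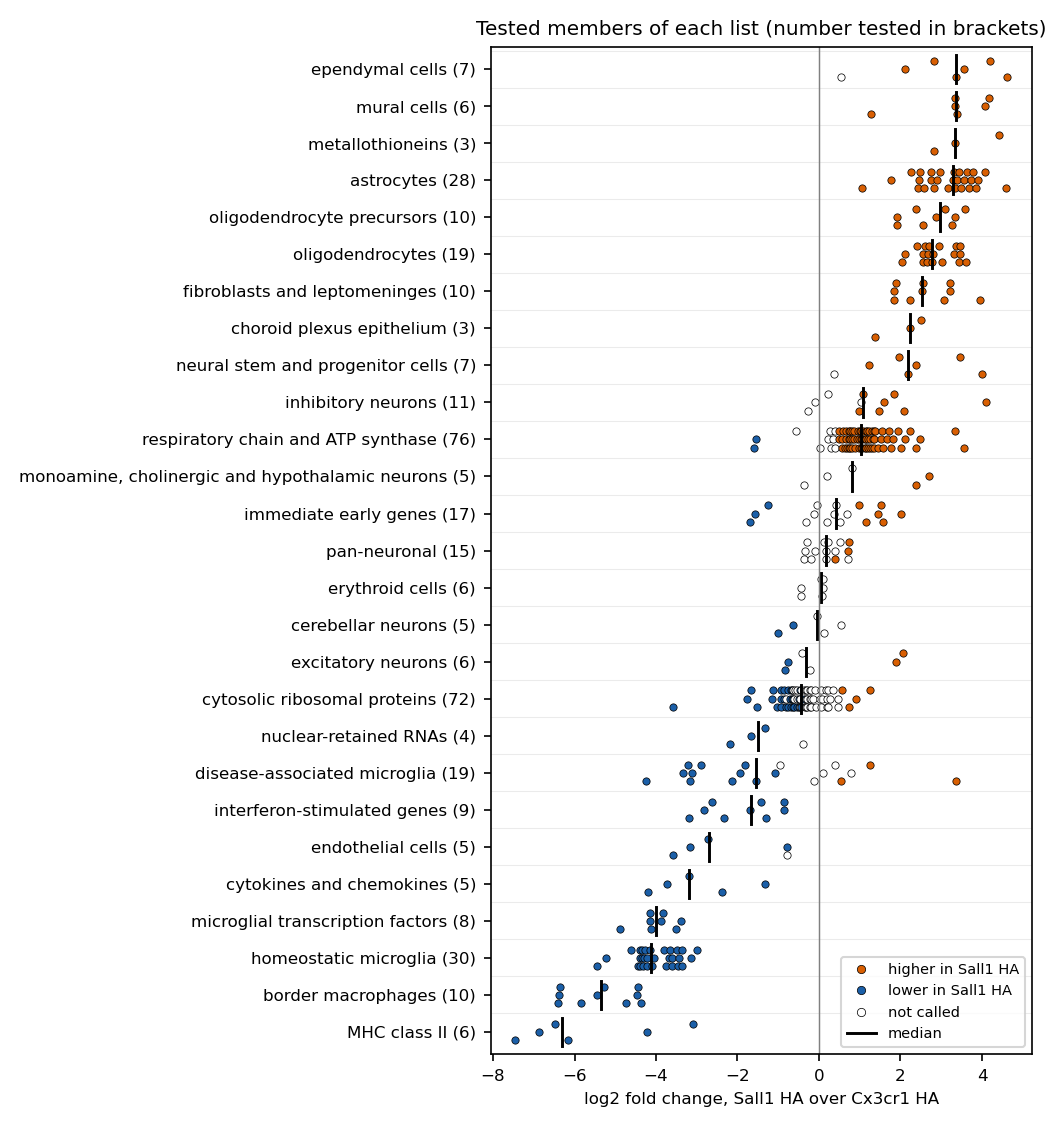
Log2 fold change of Sall1 HA over Cx3cr1 HA for every tested member of each list with at least 3 tested members; a gene with no count in one group (Enpp6) is left out. Filled points were called, open points were not, the grey vertical line marks 0 and short black lines mark the median of all tested members. Members of the homeostatic microglial, microglial transcription factor, border macrophage and MHC class II lists lie left of 0. Astrocyte, oligodendrocyte, precursor, mural and fibroblast members lie right of 0, and disease-associated microglial members lie on both sides.

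Most listed genes of circulating leukocytes were at or near 0 in both precipitates, with Mmp9 and Cd79b in Cx3cr1 HA and Ace in Sall1 HA above that. Of monocyte, neutrophil and lymphocyte genes, 1 of 9, 1 of 11 and 1 of 12 in the table passed the filter. These were Ace (2.26 ± 0.61 SE, adjusted p = 0.00297), which choroid plexus and neurons also make, Mmp9 (-4.0 ± 0.50 SE, adjusted p = 1.88e-07) and the B cell receptor gene Cd79b with 2.64, 1.28, 4.11 and 2.31 CPM in the Sall1 HA libraries, against 40.0, 33.6, 43.6 and 14.0 CPM in those of Cx3cr1 HA (-3.88 ± 0.39 SE, adjusted p = 3.76e-09). Ly6c2, Ccr2, S100a8, S100a9 and Cd3e were not tested. Without Cx3cr1 HA of mouse 1 Ace lay at 3.56. Without any 1 Sall1 HA library Ace and Mmp9 were not tested either, so that 0 monocyte and 0 neutrophil genes were called. Haemoglobin genes were not called in 6 of 6 cases, and Hbb-bs, for example, had 53.8, 42.0, 62.5 and 57.5 CPM in the Sall1 HA libraries, against 34.8, 42.8, 61.9 and 41.9 CPM in those of Cx3cr1 HA. Near-identical haemoglobin copies share entries in the table, so their separate counts are uncertain.

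Genes of the translation and energy machinery moved by smaller amounts. Of cytosolic ribosomal protein genes 29 of 72 tested were lower, 4 higher and 39 not called, with a median of -0.44. The largest change was that of Rpl39 (-3.59 ± 0.39 SE, adjusted p = 2.75e-08), and Rps9 had 1068, 865, 826 and 905 CPM in the Sall1 HA libraries, against 1462, 1542, 1695 and 1892 CPM in those of Cx3cr1 HA (-1.04 ± 0.16). Rps27l, a variant copy, was higher at 0.91 ± 0.23. The counts of such genes can be affected by pseudogenes and near-identical copies. With transcript length as an offset 52 were lower, none was higher, the median was -0.85 and Rps27l was not called (0.39, adjusted p = 0.166). With library totals 17 were lower and the median was -0.25. Respiratory chain and ATP synthase genes were higher in 66 of 76 tested, with a median of 1.03 and a share of 4.854% ± 0.234 in Sall1 HA and 2.102% ± 0.103 in Cx3cr1 HA, and 2.41% in Sall1 IgG and 2.28% in Cx3cr1 IgG. With the length offset 53 were higher, 3 lower and the median was 0.60. Atp5k, a small ATP synthase subunit, had 729.8, 728, 809 and 655 CPM in the Sall1 HA libraries, against 97.5, 113, 131 and 122 CPM in those of Cx3cr1 HA (2.47 ± 0.18 SE, adjusted p = 8.17e-12), and the complex I genes Ndufb9 and Ndufb11 lay at 1.52 ± 0.16 and 1.76 ± 0.18. The 2 lower ones were Cox6a2, known from muscle and some interneurons, at -1.61 ± 0.26 and Uqcrb, named after its values were seen, at -1.54 ± 0.41.

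RNAs that stay in the nucleus give a view of RNA that did not come with ribosomes. Their share was 0.00703% ± 0.00188 in Sall1 HA and 0.0173% ± 0.00583 in Cx3cr1 HA, beside 0.207% in Sall1 IgG and 0.155% in Cx3cr1 IgG. Snhg11 (-2.18 ± 0.32 SE, adjusted p = 3.35e-06), Malat1 (-1.66 ± 0.40 SE, adjusted p = 0.00129) and Meg3 (-1.33 ± 0.33 SE, adjusted p = 0.00194) were lower in Sall1 HA and Neat1 was not called. In 1 fit of all 16 homogenate libraries the calls of Malat1 (adjusted p = 0.103) and Meg3 (adjusted p = 0.0745) were lost, and without Cx3cr1 HA of mouse 1 Meg3 lay at -0.86. Malat1 had 9.50, 16.3, 19.3 and 5.62 CPM in the Sall1 HA libraries, against 38.3, 24.5, 18.4 and 62.9 CPM in those of Cx3cr1 HA, with overlapping groups. Their part in the differences of other lists was not tested.

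Transcript length moved with the result. Of tested genes under 1 kilobase 42.7% were called higher and 16% lower, and of those over 5 kilobases 18.9% were higher and 31.8% lower. The median length was 2342 bases for genes called higher and 3034 for genes called lower. With length as an offset 2260 genes were higher and 2516 lower, and counts for the microglial, border macrophage, MHC class II, astrocyte and oligodendrocyte lists were the same as without the offset. Depth moved with the groups as well. After all 8 libraries had been thinned to the smallest one, 4860 genes were tested and 1363 were higher and 1371 lower.

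Outside the lists, the largest changes by the naming rule were as follows. Cmbl, the gene of a hydrolase, had 38.0, 45.8, 40.7 and 47.9 CPM in the Sall1 HA libraries, against 0, 0, 0 and 0 CPM in those of Cx3cr1 HA, at least 23.6-fold higher against the floor of 3 counts over the group. Inmt, an indolethylamine methyltransferase, had 30.6, 18.0, 14.8 and 42.3 CPM in the Sall1 HA libraries, against 0, 0, 0 and 0 CPM in those of Cx3cr1 HA, at least 14.8-fold higher. Neither had a count in any Cx3cr1 HA library. The peroxisomal membrane gene Pxmp2 lay at 4.82 ± 0.44, the histone gene Hist1h4h at 4.67 ± 0.40 and the unnamed transcript 2900052N01Rik at 4.84 ± 0.34. The other five had 1 count each over the Cx3cr1 HA libraries, so their folds are ratios of summed counts with a 95% exact interval for counting error only. The ratio was 40.6-fold (7.21 to 1609) for Serpind1, the gene of heparin cofactor II, 36.2-fold (6.43 to 1437) for the acyltransferase gene Mboat2 and 34.2-fold (6.07 to 1357) for Mia. It was 60.01-fold (10.7 to 2377) for 1700003M07Rik and 33.4-fold (5.92 to 1324) for 1700007K13Rik. Without the library that holds the count, mouse 1 for Mboat2, mouse 4 for Mia and mouse 3 for the rest, these genes had no count in Cx3cr1 HA. Pxmp2 had 86.5, 86.1, 83.5 and 73.0 CPM in the Sall1 HA libraries, against 0, 6.12, 4.59 and 0 CPM in those of Cx3cr1 HA, and Sall1 HA was far above every Cx3cr1 HA library.

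Among the lower genes, Liph, a phosphatidic acid lipase, had 1.58, 0.428, 0.823 and 1.98 CPM in the Sall1 HA libraries, against 101, 55.1, 82.6 and 147 CPM in those of Cx3cr1 HA, at -6.36 ± 0.37 (SE, adjusted p = 1.65e-13). Pou2f2, the OCT2 factor of B cells and microglia, had 21.6, 15.0, 15.6 and 19.8 CPM in the Sall1 HA libraries, against 546, 456, 440.5 and 450.4 CPM in those of Cx3cr1 HA, at -4.91 ± 0.20 (SE, adjusted p = 1.02e-15), and Lcp1, the leukocyte actin bundler, 2.64, 6.00, 3.70 and 5.95 CPM in the Sall1 HA libraries, against 146, 97.9, 139.9 and 188 CPM in those of Cx3cr1 HA (-5.09 ± 0.27). The inhibitory receptor gene Pirb lay at -5.10 ± 0.31, the chemokine gene Ccl9 at -5.08 ± 0.30 and Gpsm3, a G protein modulator of leukocytes, at -5.05 ± 0.23. Mlph, a linker of melanosomes to myosin, lay at -4.90 ± 0.36, the serine protease gene Klk8 at -4.88 ± 0.21, Rapsn, which clusters acetylcholine receptors at the nerve-muscle synapse, at -4.84 ± 0.31 and Slfn2 at -4.79 ± 0.42. None of these genes had overlapping groups, which the rule required.

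The IgG libraries allow the difference between lines to be set against the background of each. The difference in HA over IgG enrichment, the Sall1 value minus the Cx3cr1 value, was called in 3965 of 12308 genes (32.2%), 2277 higher in Sall1 (18.5%) and 1688 lower (13.7%). It was 3.81 ± 0.29 for Clu (adjusted p = 3.96e-10, edgeR) and 3.15 ± 0.32 for Vtn (adjusted p = 3.64e-08), and negative for Csf1r at -3.85 ± 0.25 (adjusted p = 6.36e-11) and Cd74 at -6.30 ± 0.44 (adjusted p = 2.73e-10). For Cx3cr1 it was -3.22 ± 0.27 (adjusted p = 1.64e-09), for Sall1 -2.19 ± 0.35 (adjusted p = 2.63e-05) and for Rpl22 0.02 ± 0.20 (adjusted p = 0.951), no call. Rpl22 was enriched over IgG in both lines, at a log2 fold change of 1.63 in Sall1 HA and 1.56 in Cx3cr1 HA. Csf1r was enriched in both as well, at 1.80 in Sall1 HA and 5.61 in Cx3cr1 HA, whereas Clu was enriched in Sall1 HA (2.03) and depleted in Cx3cr1 HA (-1.82).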

How the data were processed

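Polyadenylated RNA of anti-HA and IgG precipitates from brain homogenate was sequenced. The authors deposited 1 table of raw counts of reads over exons, without normalization. Genome build mm9, HOMER, HISAT 0.1.5 and bcl2fastq are named in the submitters' processing notes, with no order. Strand setting and treatment of multiply mapped reads are not given in the sources used here. Each count column carries the name in its sample's description. The 16 sorted-cell libraries were not used here. Replicates differed by more than sampling noise (ratio of chi-square to its degrees of freedom 3.63 to 11.7 between Sall1 HA libraries and 1.75 to 4.12 between Cx3cr1 HA libraries), and PCR copies were not marked, so floors of 3 counts cover counting error only.

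The 4 libraries of each group, 1 per mouse, were compared with edgeR 4.0.16 in R 4.3.3 (robust quasi-likelihood test, TMM scaling, low-count filter with a minimum count of 10) and p-values were adjusted over all genes tested by Benjamini-Hochberg. Fold changes are given on the log2 scale with their SE. The difference in HA over IgG used all 16 homogenate libraries. Alternatives were median-ratio and library-total scaling, DESeq2 1.42.0, no filter and a minimum count of 50, a transcript length offset, a test against a log2 fold change of 1, 1 fit of 16 libraries, thinned counts and each library left out. The main fit and the difference in HA over IgG, without and with the mouse as a block, were tested on simulated data. The other alternatives were not. Recovered for Sall1 HA against Cx3cr1 HA were 51% of genes changed by 1 on the log2 scale and 100% of those changed by 2. Of the unchanged genes among the 8801 in that step 0.128% were called. For the difference in HA over IgG 30% and 97% were recovered, and 21% and 90% with the block. The simulations gave all genes the same spread and changed 100 genes by each amount, far fewer than were called in the data.

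The 30 lists of 563 members and the members named were chosen with earlier results of these data known, so lists are described by counts and medians. The naming rule took Clu, Csf1r, Cd74, Vtn, Cx3cr1, Sall1 and Rpl22. For each list it took the 3 most significant members called in the median's direction and the most significant one called in the other, or the 2 most abundant where none was called. Outside the lists it took 10 genes per direction with the largest change, an average log2 CPM of 4 or more and groups that did not overlap. Some genes that met the rule or were counted are not reported here by name. The series' design text takes HA and IgG libraries of 1 number from 1 mouse, and their deviations from the group means correlated at -0.0456 to 0.0929.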

Additional observations from a re-analysis of the deposited data

Results flagged for a closer look

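Of 276 values checked for a library far from the other 3 of its group, 17 met the criterion. For normally distributed values chance alone gives about 1 in 20. That rate does not hold for genes with 1 count over a group. In Sall1 HA, mouse 21 accounted for 5 of them. Its Fosb level was 24.4 CPM where the others had 62.5 to 69.7, Pdgfrb 55.2 CPM where the others had 39.9 to 42.4, and Vtn 517 CPM where the others had 304 to 334. Its share of gene counts was 0.138% for neural stem and progenitor genes (others 0.105 to 0.11%) and 1.42% for oligodendrocyte genes (others 1.16 to 1.19%). Mouse 9 had 54 CPM of Slc6a13 (others 69.7 to 71.6) and a cerebellar share of 0.0297% (others 0.0254 to 0.0257%).

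In Cx3cr1 HA, mouse 3 stood apart in 5 values. It alone had counts of 1700003M07Rik, 1700007K13Rik and Serpind1, at 2.29 CPM each, and it had 156 CPM of Ccl5 (others 66.3 to 76.6) and 170 CPM of Ier5 (others 103 to 113). Mouse 1 had 60.9 CPM of Gad1 (others 29.8 to 31.4), 546 CPM of Pou2f2 (others 440 to 456) and was alone with counts of Mboat2 (1.74 CPM). Mouse 4 had 810 CPM of Gpsm3 (others 437 to 462) and was alone with counts of Mia (3.49 CPM). Since 1700003M07Rik, 1700007K13Rik, Serpind1, Mboat2 and Mia had 1 count each over Cx3cr1 HA, they met the criterion by construction.

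Without the mouse as a block, edgeR's test called a difference in HA over IgG between the lines in 3965 genes. Among the 7 for which it is given, it was 3.81 for Clu, 3.15 for Vtn, -3.85 for Csf1r, -6.30 for Cd74, -3.22 for Cx3cr1 and -2.19 for Sall1.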

How the results depend on the processing

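No call of either direction turned to the other under any alternative tried. Of 108 named genes, 80 were tested in all 17 alternatives, and 67 of these kept their call or lack of one and their sign. The other 28 were not tested in at least 1 alternative, and 24 of them kept both where tested. In 17 genes a call was lost or a sign turned, in 6 of them only by the test against a log2 fold change of 1. No paired analysis was possible for Sall1 HA against Cx3cr1 HA because the lines share no replicate number. With the mouse as a replicate block, the difference in HA over IgG was called higher in 2363 and lower in 1788 genes, and in 1736 and 2260 with a transcript length offset as well. The block changed no call of the 7 genes given (Clu 3.80, Csf1r -3.86, Cd74 -6.35, Vtn 3.13, Cx3cr1 -3.22, Sall1 -2.10 and Rpl22 0.02). Scaling by library totals gave 3051 genes higher and 1932 lower (61.2% of calls higher, against 51.4%) and moved the median of all genes to 0.24. With no filter 57.6% of calls were higher and the median was 0.33. In 1 fit of 16 libraries 56.4% of calls were higher and the median was 0.13. The cause of changes below was not tested, except that stricter filters, thinning and left-out Sall1 HA libraries tested fewer genes.

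A minimum count of 50 gave 1457 genes higher and 1431 lower, the test against a fold 1045 and 1076, and thinning 1363 and 1371. At a minimum count of 50 the called members were 3 of border macrophages, 0 each of monocytes, neutrophils, lymphocytes and (higher) excitatory neurons, 3 each of neural stem cells, ependymal cells and immediate early genes, 5 each of oligodendrocyte precursors and fibroblasts, 4 of interferon-stimulated genes, and 1 each of cerebellar, monoamine, endothelial, mural, choroid plexus and nuclear-retained genes. Thinning gave the same numbers, except 0 cerebellar, 6 fibroblast and 5 interferon-stimulated genes, and 19 ribosomal protein genes. With no filter they were 2 neutrophil, 2 lymphocyte, 6 pan-neuronal, 1 cerebellar, 10 ependymal, 5 choroid plexus and 9 cytokine genes. With library totals they were 5 pan-neuronal, 0 cerebellar and 17 ribosomal genes, and with the length offset 1 pan-neuronal and 52 ribosomal. Tested against a fold they were 0 pan-neuronal, 1 excitatory, 4 inhibitory, 0 cerebellar, 1 immediate early, 5 interferon-stimulated, 1 nuclear-retained, 3 ribosomal and 19 respiratory genes. In 1 fit of 16 libraries they were 1 cerebellar, 8 cytokine and 17 ribosomal genes.

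Over left-out libraries 2047 to 2578 genes were higher and 2012 to 2383 lower, with 0 to 1 monocyte, 0 to 1 neutrophil, 1 to 2 excitatory, 0 to 3 cerebellar, 1 to 3 monoamine and 2 to 6 endothelial genes. Ribosomal genes called lower numbered 20 to 25. Leaving the 100 most abundant genes out of the total gave log2 share ratios of -3.98 for microglia, 3.34 for astrocytes, -2.40 for endothelium, -1.21 for disease-associated microglia, -0.46 for ribosomal and 1.01 for respiratory genes.

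Uncalled genes near 0 changed sign. Hbb-b1 was -0.44 with the length offset and -0.20 thinned, and Hbb-bs -0.43 with the offset. Over left-out libraries they ranged from -0.07 (without Cx3cr1 HA of mouse 1) to 0.30 and 0.31 (without mouse 3). Rpl22 was -0.04 with the offset and -0.04 thinned. Its difference in HA over IgG was -0.08 with median-ratio factors, -0.06 with DESeq2, -0.28 with offset and block, and from -0.03 to 0.07 over left-out libraries, with 0 without Sall1 HA of mouse 21, -0.03 without Sall1 IgG of mouse 17 and -0.03 without Cx3cr1 IgG of mouse 2.

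Depth limits rare genes most in Cx3cr1 HA, where 4420 to 6644 genes reached 10 counts, against 9672 to 10903 in Sall1 HA.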
